A study of Homo sapiens with 8 samples.

Results

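The replication-dependent histone genes encode the linker histone H1 and the core histones H2A, H2B, H3 and H4, and most of them lie in a few clusters on chromosomes 6 and 1. Members were all rows whose Ensembl gene ID carries a current symbol of the form H1-1 to H1-6, H2AC, H2BC, H3C or H4C with a number. Of 69 such symbols, 32 had a matching row among the 20897 genes of the files, and the other 37 were not analysed here. The 32 comprised 6 H1, 8 H2A, 9 H2B, 5 H3 and 4 H4 genes. In the coordinates of the files (hg18), 22 lay on chromosome 6 between 25834339 and 27968906, 7 on chromosome 1 between 148049907 and 148126090, 2 on chromosome 1 between 226711303 and 226712882, and 1 (H4C16) on chromosome 12.

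The measurements came from polyA RNA of HepG2, an established human liver carcinoma line, held in 1% serum and treated for 18 h. Vehicle wells received DMSO (n = 3), others genistein (n = 3), an isoflavone that inhibits tyrosine kinases and topoisomerase II and binds oestrogen receptors, and others BMP6 at 50 ng/ml (n = 2), a bone morphogenetic protein that induces hepcidin. Every well, treated or not, contained 1% DMSO, and cells had been switched to low serum 8 h earlier. For genistein, 10 micromolar is the figure in the design text, but the protocol gives that number with the unit millimolar. Each group is 1 cell line under 1 dose, and the p-values measure the spread between wells that the design text describes as biological replicates.

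Replication-dependent histone mRNAs are made mainly in S phase, when new DNA must be packed into nucleosomes. Their transcription depends on the coactivator NPAT, and their 3' ends are normally cut behind a short stem-loop that is bound by SLBP and carries no polyA tail. When DNA synthesis stops, these tailless mRNAs are degraded. Some cluster genes also give longer, polyadenylated transcripts from a site beyond the stem-loop, and polyA selection is meant to keep such tailed molecules. The values below come from polyA-selected RNA and are no measure of total histone mRNA. How much untailed RNA was carried over was not tested.

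The stem-loop itself was looked for in the GENCODE v29 transcripts. The search required 6 Watson-Crick base pairs that begin with 2 G, and a loop of 4 bases that begins with 3 T. It found 1 in 14 of the 32 genes and in 3 versions, shown here with the loop in capitals.
H2BC21, H2AC6, H2AC13, H2BC13, H2BC18, H3C14, H3C15, H2AC25 and H2BC26: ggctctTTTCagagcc
H2BC4 and H2BC5: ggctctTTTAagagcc
H4C8, H4C11 and H4C16: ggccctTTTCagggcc
The H4 version differs from the others in its stem, and the H2BC4 and H2BC5 version in the last base of the loop. No H1 gene gave a match, and many of the annotated models, such as the 381 bases of H2BC12 and the 390 of H2AC20, are short. A missing match therefore says only that these letters are not in the annotated transcript. Among the transcripts that hold the stem-loop, the longest run past it was 1729 bases in H2BC21, 1128 in H2AC6 and 1655 in H4C8. It was 6 bases in H4C11, 39 in H2BC5 and 40 in H2BC13.

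The promoters of 3 members are printed because the results turn on them: H1-4 and H1-2, linker histone genes that behaved differently, and H2BC21, a core histone gene that fell. Each sequence is the 150 bases before the RefSeq start (GRCh38.p14), 5' to 3' on the gene's strand. Capitals mark matches on either strand to TATAAA, to CCAAT, to AAACACA (the core of the H1 box) and to ATTTGCA (the core of the octamer bound by OCT1).
H1-4 (chr6:26156179-26156328, plus strand): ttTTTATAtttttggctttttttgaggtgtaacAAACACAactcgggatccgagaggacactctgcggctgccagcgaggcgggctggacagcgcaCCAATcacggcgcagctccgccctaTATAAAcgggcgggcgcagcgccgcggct
H1-2 (chr6:26056471-26056620, minus strand): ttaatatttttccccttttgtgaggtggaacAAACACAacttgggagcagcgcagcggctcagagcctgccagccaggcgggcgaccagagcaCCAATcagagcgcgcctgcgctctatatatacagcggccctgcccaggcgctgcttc
H2BC21 (chr1:149886683-149886832, minus strand): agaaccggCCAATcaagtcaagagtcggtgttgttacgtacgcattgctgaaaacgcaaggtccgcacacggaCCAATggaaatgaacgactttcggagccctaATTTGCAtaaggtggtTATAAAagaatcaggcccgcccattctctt
The H1 box began 117 bases before the start in H1-4 and 119 in H1-2, and the CCAAT box 54 and 57 bases before it. H2BC21 had its octamer core 46 and a TATAAA 30 bases before the start. Of the 32 genes, 30 had an entry of 300 bases (250 before the start and 50 after) in the RefSeq table. In these windows AAACACA was present in 6 of 6 H1 genes against 5.64% of 35116 promoters, and ATTTGCA in 6 of 8 H2A and 6 of 9 H2B genes against 4.2%. CCAAT was present in 27 of the 30 (34.6% of all promoters), with the 3 H4 genes as the exceptions, and TATAAA in 21 of the 30 (11.5% of all promoters). H1-4 and H1-2 thus shared the H1 box and CCAAT at nearly the same distances. The exact letters TATAAA were found in H1-4 but not in H1-2, whose printed sequence holds tatatata instead. Variants of TATAAA were not searched for, so a missing match does not mean that such an element is absent. These matches are descriptions of sequence and were not tested against the expression values.

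Levels are in FPKM, which relates the fragments of a gene to its length and to the size of its library. The number of fragments behind a value is unknown. Per library, FPKM summed to 1704600 to 3105200 over all genes and to 181.5 to 1405 over the 32 histone genes, which is 0.0106% to 0.0596% of the total. DMSO 1 and genistein 2 stood apart, with 11 and 12 of the tested histone genes listed at 0, against 0 to 6 in the other libraries. Of the 11 at 0 in DMSO 1, 10 were also at 0 in genistein 2. Those libraries also had the most zeros over all tested genes (1679 and 2167 of 12661). A listed 0 may also be an estimate that failed, although all rows of the 32 histone genes carried the status OK. BMP6 1 had the lowest scale of all libraries, with a median-of-ratios factor of 0.728 against 0.828 to 1.24 in the others.

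A gene entered the tests if 2 or more libraries reached 1 FPKM. This kept 21 of the 32 histone genes, 8 of them above 0 in all 8 libraries. Of the 11 left out, 8 were listed at 0 everywhere: H1-1, H1-3, H1-5, H1-6, H2AC1, H2BC1, H2BC26 and H3C12. H2AC11, H2AC25 and H3C13 reached 1.04, 2.41 and 2.2 FPKM in 1 BMP6 library each. H1-6, H2AC1 and H2BC1 are known as testis histone genes. Hepatocyte markers stood far above them, with ALB, the gene of serum albumin, between 17949 and 143115 FPKM. Of the 6 fibroblast markers, COL1A1, COL1A2, COL3A1, DCN and LUM were at 0 in all libraries, and PDGFRB reached 19.5 FPKM in BMP6 1. Of 5 leukocyte markers, PTPRC and CD3E were at 0 in all libraries, and the list's sum, mostly LYZ, was 3250 to 4859 FPKM in DMSO, 1242 to 1955 after genistein and 1562 to 2401 after BMP6. Of 4 cholangiocyte markers CFTR was at 0, and the sum was 1078 to 1513, 408 to 927, and 247 to 1931 FPKM in the same order. Endothelial KDR was at 0, with VWF and CDH5 above 0 in BMP6 1 alone. Their part in the histone results was not tested.

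**Figure D1:**
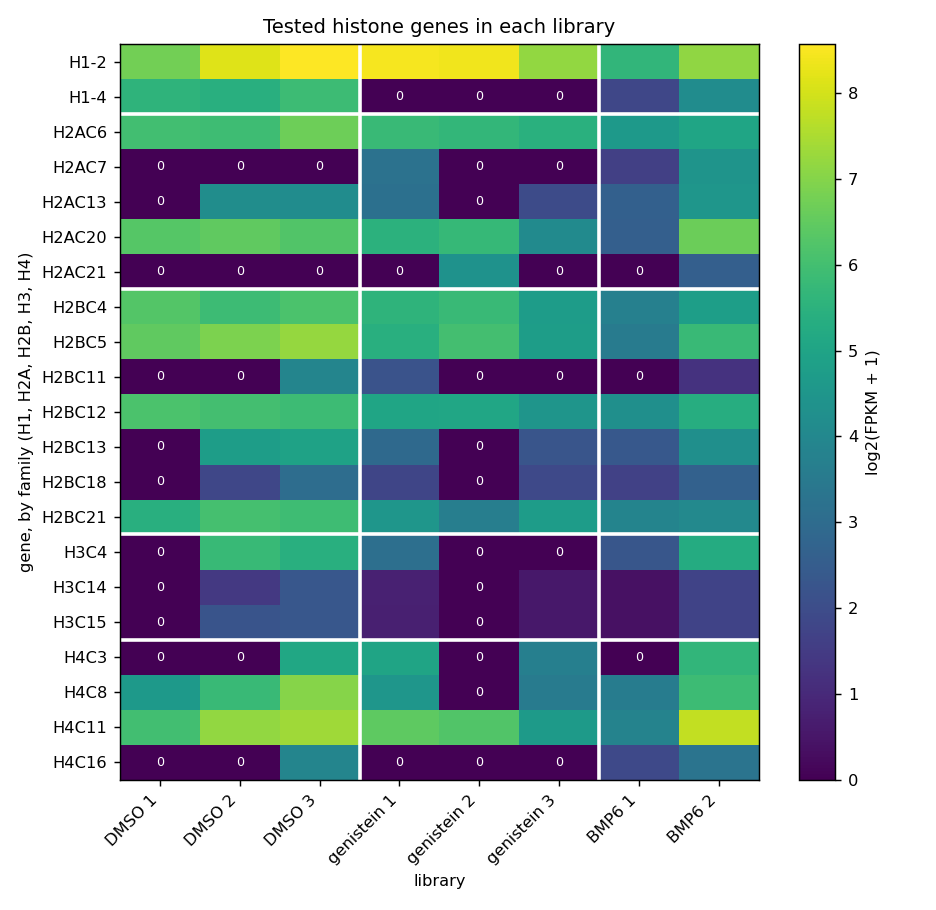
Levels of the 21 tested histone genes (rows, by family) in the 8 libraries (columns), as log2(FPKM + 1), with 0 printed where a gene was listed at exactly 0. The zeros concentrate in DMSO 1 and genistein 2, and the row of H1-4 is at 0 in all 3 genistein libraries.

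In vehicle, H1-2 was the most abundant member, with 107, 282 and 379 FPKM in DMSO 1, 2 and 3. H1-2 encodes a linker histone that seals DNA at the nucleosome. H4C11, an H4 gene, followed with 62.4, 145 and 163 FPKM, and H2BC5, an H2B gene, with 87.9, 118 and 148. H2AC20 (78.3, 88.5 and 74.5 FPKM), H2AC6 (62.1, 59.2 and 101), H4C8 (23.6, 55 and 129), H2BC4 (77.1, 57.6 and 70.3), H2BC12 (70.5, 63.1 and 58), H2BC21 (41.4, 64.8 and 59.4) and H1-4 (46.7, 41.4 and 57.5) came next. The DMSO ranges of each pair of neighbours in this order of means overlapped. Means of the remaining 11 tested genes in DMSO lay at or below that of H3C4, which was 0, 53.6 and 41.8 FPKM.

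The 6 members known also as polyadenylated transcripts (H1-2, H2AC6, H2BC4, H2BC5, H2BC12 and H2BC21) were above 0 in all 8 libraries. Besides them only H2AC20 and H4C11 were. In the files the gene span exceeded 1000 bases in 11 of the 21 tested genes and in 2 of the 11 that were not tested, and the median span was 1656 against 666 bases. The longest spans were those of H2AC6 (60083 bases) and H2BC21 (44432 bases). Short spans were no bar to a high value, since H4C11, H2AC20 and H1-2 have spans of 374, 437 and 642 bases.

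**Figure D2:**
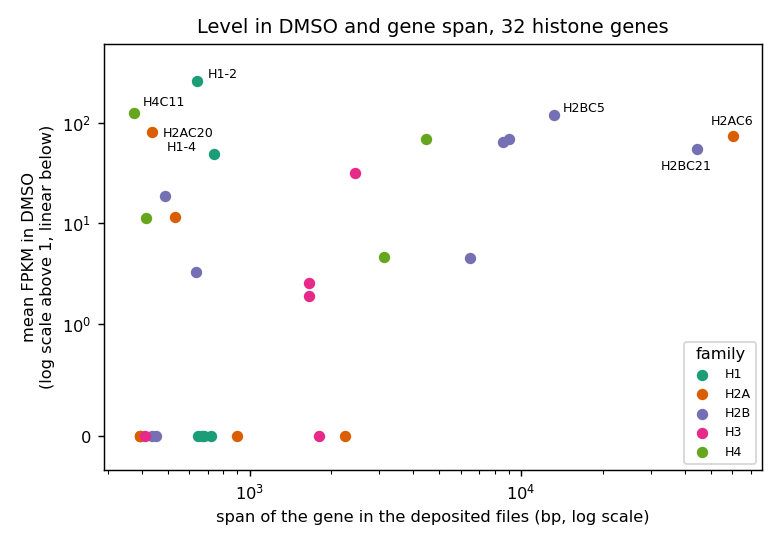
Mean FPKM in DMSO (vertical, log scale above 1 and linear below) against the gene span in the files (horizontal, log scale) for all 32 histone genes, coloured by family. The 5 genes spanning 8547 bases or more are all above 50 FPKM, while short genes range from 0 to the highest value, that of H1-2.

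Near-identical copies limit single values. Transcripts were cut into words of 36 bases, and all words of H3C14 occur in H3C15 and the reverse. Their FPKM nearly coincide in most libraries, for instance 4 in each in DMSO 3, so they count as 1 measurement that was split. H4C11 shared 82% of its words with H4C12, H2AC13 63.5% with H2AC14, H2BC12 40.2% and H2BC13 32.9% with other members of the 69. H1-2 shared 0% and H1-4 0.278%. Spans also overlap: H1-4 and H2BC5 lie inside the span of H2AC6, H3C15 inside that of H2BC21, H2AC20 and H2AC21 overlap BOLA1, and 13 of the 21 tested genes overlap an entry without a symbol. No source used here says whether counting used strand, so reads in such overlaps cannot be assigned with certainty.

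The first comparison asked how genistein changed these transcripts relative to vehicle. H1-4 and H2BC21 fell, no member rose, and the other 19 tested members did not pass the threshold. H1-4 went from 41.4 to 57.5 FPKM in DMSO to a listing of 0 in all genistein libraries. H2BC21 went from a mean of 55.2 to 19.7 FPKM. H1-2, the other linker histone gene that was detected, had group means that differed by less than the spread between libraries.

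The count of 2 lower among 21 tested compares with 5.96% of all 12661 genes called lower, and 0 higher with 6.11% called higher (limma, Benjamini-Hochberg adjusted p under 0.05). With a share this close to the background and so few genes, the count is no result about the histone genes as a group. At an unadjusted p under 0.05, 5 were lower (14.3% of all genes) and 0 higher (15.7%). The differences were negative for 17 of the 21 (48.4% of all genes) and positive for 4 (51.5%). This split into 17 and 4 was the same under median-of-ratios scaling and quantile normalization. The members at an unadjusted limma p under 0.05 were then 7 and 6, against 4271 and 4431 of all 12661 genes. H3C14 and H3C15, a split measurement, enter these and later counts as 2 genes, and both are among the 17. The median over the 21 was -1.08 on the log2(FPKM + 1) scale, against 0.05 over all genes tested. Without DMSO 3 it was -0.66, with 14 negative and 6 positive, and with a pseudocount of 5 it was -0.67. Genistein libraries lay wholly below the DMSO libraries for 8 of the 21 (20.6% of all genes): H2BC21, H2AC20, H2BC4, H2AC6, H1-4, H2BC5, H4C8 and H2BC12. None lay wholly above, against 23.3% of all genes. After median-of-ratios scaling 9 of the 21 lay wholly below, with H4C11 added, against 25.5% of all genes. These were 5 of the 6 members known also as polyadenylated transcripts and 4 of the 15 others. A filter on low values keeps genes through the group where they are high, so these counts describe the 21 only. In bulk RNA, fewer cells in S phase and less of this polyA-selected histone RNA per cell cannot be told apart. Total histone RNA was not measured.

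H1-4 (hg18, chromosome 6, 26264566 to 26265303) encodes a linker histone subtype. Its FPKM were 46.7, 41.4 and 57.5 in DMSO and 0, 0 and 0 after genistein. No DMSO library was at 0, and the groups did not overlap. The change passed the threshold (limma adjusted p = 0.00342). No fold is given, because the genistein group is listed at 0 and the fitted change depends on the pseudocount. A group at 0 throughout adds no spread to the fit. It passed in each of the 18 alternatives that tested it, at adjusted p from 4.1e-05 to 0.04. Those alternatives reuse the same listings of 0, so their agreement is no independent support. H1-2 (chromosome 6, 26163994 to 26164635) had 346, 332 and 144 FPKM after genistein. Its difference from DMSO was 0.18 ± 0.62 (log2, SE; 95% interval -1.23 to 1.59; limma adjusted p = 0.871), and its sign turned without DMSO 1 (-0.36).

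The share of H1-2 in the summed FPKM of all 32 histone genes does not depend on the scaling of a library. It was 16.2%, 26.1% and 27% in DMSO 1, 2 and 3, and 45.3%, 48.1% and 40.2% in genistein 1, 2 and 3. The genistein libraries lay above all the others, as BMP6 1 and 2 had 27.1% and 16%. The sum without H1-2 was 550, 797 and 1026 FPKM in DMSO and 418, 359 and 215 after genistein.

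Among H2B genes, H2BC21 (chromosome 1, 148080395 to 148124826) had 41.4, 64.8 and 59.4 FPKM in DMSO and 21.7, 11.8 and 25.6 after genistein. All 3 genistein libraries were below all 3 DMSO libraries. The means were 55.2 ± 12.3 and 19.7 ± 7.11 FPKM (SD, n = 3 each), a log2 change of -1.48 ± 0.39 (SE; limma adjusted p = 0.0447). This call was close to the threshold: it was lost without any single DMSO or genistein library, at adjusted p from 0.0558 to 0.156, with the change between -1.7 and -1.17.

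H2BC12 had 70.5, 63.1 and 58 FPKM in DMSO and 32, 32.9 and 21.2 after genistein, with no overlap (log2 difference -1.15 ± 0.38, limma adjusted p = 0.0863). H2BC5 had 87.9, 118 and 148 FPKM in DMSO and 41.9, 63 and 26.5 after genistein, again with no overlap (-1.46 ± 0.60, adjusted p = 0.146). H2BC4 had 77.1, 57.6 and 70.3 against 47, 54.6 and 25.7 FPKM, also without overlap (-0.73 ± 0.42, adjusted p = 0.279). These 3 genes encode H2B and are on the list of members with known tailed transcripts. H2BC11, H2BC13 and H2BC18 were at 0 in DMSO 1 and in genistein 2, and their differences, from -1.51 to -0.40, had intervals that include 0. All 7 tested H2B genes had a negative difference, with a median of -1.15, and both scalings left all 7 negative, while without DMSO 3 it was 5 of 7.

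**Figure D3:**
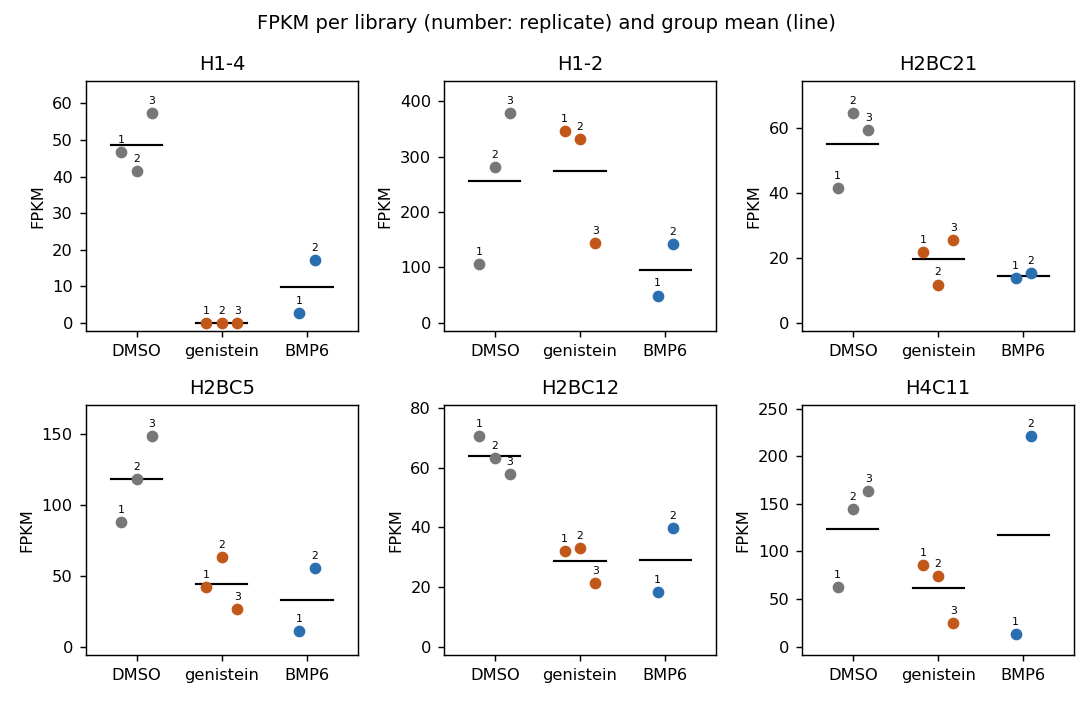
FPKM in each library for H1-4, H1-2, H2BC21, H2BC5, H2BC12 and H4C11 (points, numbered by replicate, with the group mean as a line) in DMSO, genistein and BMP6. The genistein points of H1-4, H2BC21, H2BC5 and H2BC12 lie below all DMSO points, while those of H1-2 and H4C11 overlap them, and BMP6 1 and 2 are far apart for H4C11.

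Among H2A genes, H2AC6 had 62.1, 59.2 and 101 FPKM in DMSO and 54.7, 49.9 and 42.2 after genistein, without overlap but with a difference of only -0.55 ± 0.33 (limma adjusted p = 0.297). H2AC20 had 78.3, 88.5 and 74.5 against 44, 53 and 16.1 FPKM (-1.23 ± 0.93, adjusted p = 0.407). H2AC13 was at 0 in DMSO 1 and genistein 2 and overlapped between the groups. H2AC7 and H2AC21 were listed at 0 in all DMSO libraries, and each was above 0 in 1 genistein library, at 8.41 FPKM in genistein 1 and 19.4 in genistein 2. Single listings of that kind give no comparison.

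Among H3 and H4 genes, H4C8 had 23.6, 55 and 129 FPKM in DMSO and 21.8, 0 and 10.8 after genistein. The groups did not overlap, though DMSO 1 and genistein 1 differed by under 2 FPKM (-3.12 ± 1.21, limma adjusted p = 0.129). H4C11 had 62.4, 145 and 163 against 85.5, 74.3 and 24.7 FPKM, which overlap (-1.06 ± 0.97, adjusted p = 0.494). H3C4 was 0, 53.6 and 41.8 against 7.74, 0 and 0 FPKM (-2.69 ± 1.65, adjusted p = 0.307). H3C14 and H3C15 had their highest values, 4 FPKM each, in DMSO 3. H4C3 was listed at 0 in DMSO 1 and 2 and genistein 2, and at 33.7 FPKM in DMSO 3, 30.9 in genistein 1 and 11.9 in genistein 3. H4C16 was at 0 in all libraries but DMSO 3 (13.9 FPKM) and both BMP6 libraries.

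**Figure D4:**
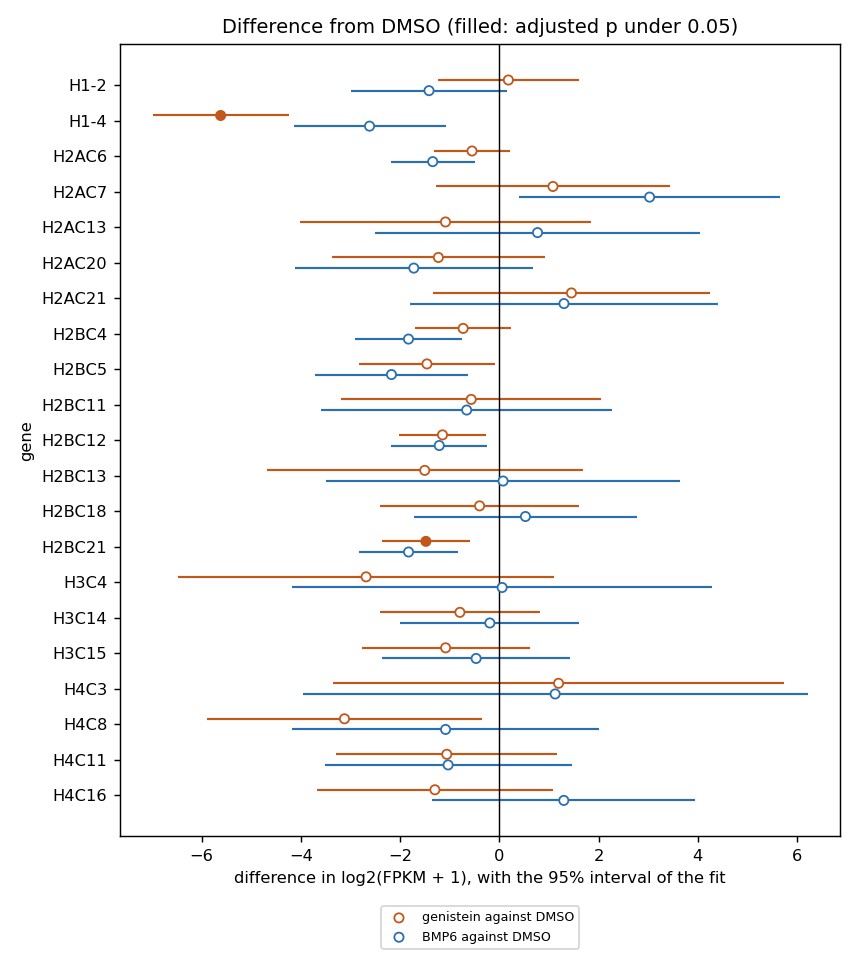
Difference from DMSO in log2(FPKM + 1) for each of the 21 tested histone genes after genistein (orange) and BMP6 (blue), with the 95% interval of the limma fit and filled points where the adjusted p was under 0.05. Filled are H1-4 and H2BC21 after genistein, and the position of H1-4 there depends on the pseudocount of 1 FPKM.

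The second comparison asked how BMP6 changed the same transcripts. No member passed the threshold. H2BC21, H2BC4, H2AC6, H2BC5 and H2BC12 were lower in both BMP6 libraries than in any DMSO library. Taken by itself, BMP6 2 was higher than any DMSO library for H4C11, H2AC20, H2AC7, H2AC13, H2AC21 and H4C3. H2AC7 was so in BMP6 1 too (2.08 FPKM). H2AC7 and H2AC21 were listed at 0 in all DMSO libraries, so any value above 0 put them there. BMP6 2 also had the largest total FPKM (3105200), and the share of all genes above DMSO in it was not computed. After median-of-ratios scaling H2AC20 was inside the DMSO range (83.5 against 66.6 to 94.5). Without scaling, BMP6 1 was below BMP6 2 in 21 of 21 tested members. The libraries also differ in scale, with median-of-ratios factors of 0.728 and 1.19. The median ratio of BMP6 1 to BMP6 2 was 0.581 over all genes above 0 in all libraries. After that scaling H2BC21 (18.9 against 12.9) and H2AC6 (32.8 against 27) were higher in BMP6 1.

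In limma, 0 of 21 members were called (0.837% of all genes were), 0 lower (0.498%) and 0 higher (0.34%). At an unadjusted p under 0.05, 6 were lower (10.5% of all genes) and 1 higher (8.32%). BMP6 libraries lay wholly below DMSO for 6 of the 21 (17.3% of all genes), namely those 5 and H1-4, and wholly above for H2AC7 (16.1% of all genes). Differences were negative for 13 of the 21 (51% of all genes) and positive for 8 (48.4%). The median difference was -0.66, against -0.03 over all genes. It turned to 0.31 without BMP6 1, and 5 members (H1-4, H2AC20, H2BC12, H2BC4 and H2BC5) passed as lower without BMP6 2, so the group value rests on which BMP6 library is used.

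H2BC21 had 13.7 and 15.3 FPKM in BMP6 1 and 2, against 41.4 to 64.8 in DMSO. The difference was -1.83 ± 0.44 in log2 units, with limma adjusted p = 0.098. H2BC4 had 12.3 and 27.1 FPKM against 57.6 to 77.1 (-1.83 ± 0.47, adjusted p = 0.114), and H2BC5 had 10.7 and 55.5 against 87.9 to 148 (-2.18 ± 0.67, adjusted p = 0.156). H2AC6 had 23.9 and 32.1 FPKM against 59.2 to 101 (-1.34 ± 0.37, adjusted p = 0.131), and H2BC12 had 18.2 and 39.6 against 58 to 70.5 (-1.21 ± 0.42, adjusted p = 0.189). None of these differences passed the threshold, although the groups did not overlap in any of them.

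H1-4 was above 0 in both BMP6 libraries, at 2.55 and 17.1 FPKM, and below the lowest DMSO value (-2.62 ± 0.67, limma adjusted p = 0.112). H1-2 had 49.2 and 141 FPKM, which overlap the DMSO range (-1.42 ± 0.69, adjusted p = 0.305). After median-of-ratios scaling its BMP6 values were 67.6 and 119 against 129 to 339 in DMSO, and all 6 members of the tailed list lay below DMSO. Of the other 15 tested members, H1-4 alone did so under that scaling, against 19.6% of all genes.

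The BMP6 libraries were far apart for several members on either list, as for H2BC5 and H1-2 above. H4C11 had 13.2 FPKM in BMP6 1 and 221 in BMP6 2, the lowest and the highest value of that gene in the series. H2AC20 had 5 and 99.4 FPKM, likewise its lowest and highest. H4C8 (11 and 57.8 FPKM) was below the DMSO range in BMP6 1 and within it in BMP6 2, and both values of H3C4 (3.89 and 37.8 FPKM) were within the DMSO range. H2AC7, an H2A gene listed at 0 in DMSO, had 2.08 and 20.5 FPKM (3.03 ± 1.14, limma adjusted p = 0.214). Over the 8 members above 0 everywhere, the ratio of BMP6 1 to BMP6 2 ran from 0.0503 to 0.896 with a median of 0.402, against a median of 0.581 over all genes above 0 in all libraries.

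**Figure D5:**
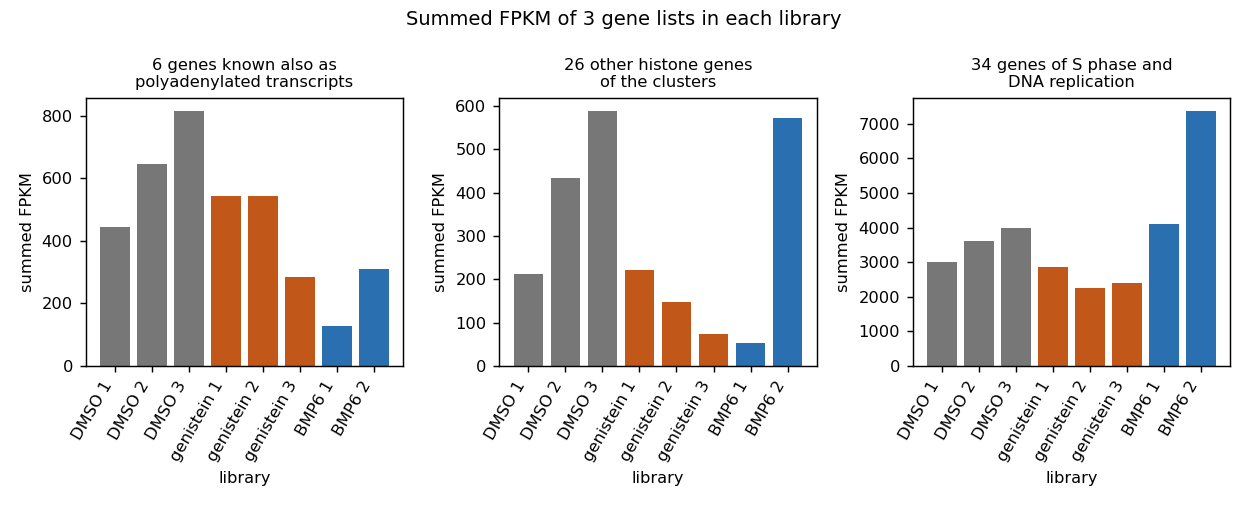
Summed FPKM per library (bars, coloured by group) of the 6 members known also as polyadenylated transcripts, of the 26 other members, and of 34 genes of S phase and DNA replication. In BMP6 2 the first sum (311) is below all DMSO sums, the second (573) is within their range, and the third (7379) is the highest of the 8 libraries.

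In summed FPKM both lists lay below all DMSO sums in BMP6 1, and in BMP6 2 only the tailed list did. The difference between the lists was not tested. The 6 members of the tailed list summed to 446, 644 and 816 in DMSO, 544, 544 and 286 after genistein, and 128 and 311 after BMP6. The other 26 summed to 211, 435 and 589 in DMSO, 220, 147 and 73.8 after genistein, and 53.5 and 573 after BMP6. In FPKM without scaling, neither set of genistein sums lay wholly below its DMSO sums. That overlap depends on library scale, as the median-of-ratios factors were 0.828 in DMSO 1 and 1.24 in genistein 1. Scaled sums were not computed.

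The third comparison set genistein directly against BMP6. No member was called by limma (1.39% of all genes were, 0.64% higher and 0.75% lower). At an unadjusted p under 0.05, 2 were higher after genistein (8.25% of all genes) and 1 lower (6.41%). Differences were negative for 11 of the 21 (42.7% of all genes) and positive for 10 (55.8%). The median difference was -0.03, against 0.12 over all genes, and it was -1.42 without BMP6 1 and 0.42 without BMP6 2. H1-4 lay lower after genistein, at 0 against 2.55 and 17.1 FPKM, without passing (limma adjusted p = 0.0784); it did pass without BMP6 1 (adjusted p = 0.0203). H1-2 was higher after genistein, at 144 to 346 FPKM against 49.2 and 141 (1.60 ± 0.69, adjusted p = 0.337). All 6 tailed members had a positive difference and 11 of the 15 others a negative one, but without BMP6 1 the differences of H2BC5 (-0.42) and H2BC12 (-0.48) were negative. The treatments share no libraries in this comparison, but each was set against the same DMSO libraries above.

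Genes that act on histones were counted from fixed lists. Among 11 tested genes listed as replication-independent variants, most of which are expressed outside S phase and carry ordinary tails, none passed in any comparison by limma. At an unadjusted p under 0.05, 2 were higher and 2 lower after genistein (15.7% and 14.3% of all genes). After BMP6 0 were higher and 1 lower (8.32% and 10.5% of all genes), and in genistein against BMP6 2 were higher and 1 lower (8.25% and 6.41%). H2AX, the gene of the H2A variant that is phosphorylated at DNA breaks, also gives stem-loop mRNA in S phase. It had 640, 974 and 1013 FPKM in DMSO, 205, 175 and 92 after genistein, and 81.2 and 735 after BMP6. All 3 genistein libraries lay below all DMSO libraries, with the smallest adjusted p of the list in that comparison (-2.52 ± 0.74, limma adjusted p = 0.0623). H3-3B, a gene of the variant H3.3, had 851, 1185 and 1100 FPKM in DMSO and 2831, 3406 and 1896 after genistein (1.35 ± 0.43, limma adjusted p = 0.0772). H3-3A, its sister gene, had overlapping values (-0.54 ± 0.43, adjusted p = 0.424). H2AZ1, the gene of H2A.Z, overlapped in all comparisons.

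SLBP, which binds the stem-loop, had 307, 160 and 155 FPKM in DMSO, 77, 65.1 and 39.6 after genistein, and 22.1 and 103 after BMP6. All 5 treated libraries lay below all 3 vehicle libraries. Neither difference passed (genistein -1.74 ± 0.58, limma adjusted p = 0.0907; BMP6 -2.01 ± 0.65, adjusted p = 0.173). NPAT was low and overlapped, from 4.5 to 8.9 FPKM in DMSO and from 0 to 13.3 after genistein. Of 17 tested genes of histone transcription and 3' end processing, 1 rose after genistein and none fell, against 6.11% and 5.96% of all genes. That gene was ZNF473, whose product is a zinc finger protein of the U7 processing complex: 2.66, 7.13 and 7.5 FPKM in DMSO and 32.3, 23 and 27.4 after genistein (2.16 ± 0.43, limma adjusted p = 0.02). The list's median difference was 0.38.

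Of 14 tested genes of histone mRNA decay, 3 rose after genistein and none fell (6.11% and 5.96% of all genes), with a median difference of 0.50. TUT4, a uridylyl transferase, went from 41 ± 8.23 to 99.7 ± 10.6 FPKM (SD, n = 3 each; limma adjusted p = 0.0288). DCP2, a decapping enzyme, went from 8.54 ± 2.28 to 26.1 ± 5.34 FPKM (adjusted p = 0.0346). LSM5, a subunit of the Lsm ring, went from 136 ± 95.1 to 505 ± 57.4 FPKM (adjusted p = 0.0316). Genistein libraries lay wholly above DMSO for 5 of the 14 and wholly below for 4 (23.3% and 20.6% of all genes). LSM1, LSM4 and LSM6 of the same ring were among those below, without passing. LSM6 went from 58.3 ± 12.3 to 13.2 ± 6.78 FPKM (limma adjusted p = 0.0579). Of 23 histone chaperone and import genes, 2 rose and 2 fell, shares close to the 6.11% and 5.96% of all genes. ASF1A, which hands H3 and H4 to assembly factors, rose from 63.5 ± 21.8 to 225 ± 13.7 FPKM (limma adjusted p = 0.0144), and the importin gene IPO4 rose from 116 ± 24.7 to 317 ± 71.5. RBBP4, a subunit of the assembly factor CAF-1, fell from 126 ± 67.7 to 9.89 ± 7.58 FPKM (adjusted p = 0.0154), and its relative RBBP7 from 263 ± 5.04 to 114 ± 36.6. No gene of these 3 lists passed after BMP6 in limma; at an unadjusted p under 0.05, 1, 2 and 4 were higher and 1, 1 and 0 lower (8.32% and 10.5% of all genes).

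Of 34 tested genes of S phase and DNA replication, 3 fell after genistein and none rose (5.96% and 6.11% of all genes), a count near the background, with a median difference of -0.47. FEN1, the flap endonuclease, went from 72.3 ± 18.2 to 27.3 ± 2.61 FPKM (SD, n = 3 each; limma adjusted p = 0.0387). CCNE2, cyclin E2, was at 3.48 to 6.95 FPKM in DMSO and listed at 0 in all genistein and both BMP6 libraries (adjusted p = 0.0154 for genistein). It entered the tests through DMSO alone, and its groups at 0 add no spread, so its call says little beyond those listings. E2F2, an S phase transcription factor, went from 8.85 ± 2.32 to 1.18 ± 1.08 (adjusted p = 0.0389). PCNA, the replication clamp, had 589, 775 and 874 FPKM in DMSO, 514, 512 and 522 after genistein and 977 and 1312 after BMP6, so the 3 groups did not overlap, but neither difference from DMSO passed (adjusted p = 0.304 and 0.359). After BMP6 none of the 34 passed in limma, 10 were higher and 1 lower at an unadjusted p under 0.05 (8.32% and 10.5% of all genes), and the median difference was 0.62. In genistein against BMP6, MCM3, a helicase subunit, was lower at 164 ± 28.1 (n = 3) against 773 ± 16.9 FPKM (n = 2; adjusted p = 0.0205), and 17 of the 34 had genistein libraries wholly below BMP6 (12.6% of all genes). The part of these genes in the histone values was not tested.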

How the data were processed

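Each library has 1 deposited file of FPKM per Ensembl gene, which also carries a status and an interval, per the file headers. The submitters' processing notes name the build hg18 and the tools Cuffdiff, Cufflinks 1.0.3, Bowtie and TopHat 1.1.0, without roles or settings. Their scaling and annotation are not given in the sources used here. All rows of the 32 members had status OK. Starts were converted to count from 1.

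Values were used as log2(FPKM + 1) with no further scaling. The 12661 genes that reached 1 FPKM in 2 or more libraries entered 1 limma fit (version 3.58.1, R 4.3.3) over all 8 libraries with an intensity trend, so the 3 groups share a spread (degrees of freedom: 5 residual, 3.23 prior). Each of the 3 contrasts was two-sided and adjusted by Benjamini-Hochberg over all genes tested, with a threshold of 0.05. Fold changes on this scale understate the change of low genes. The fit was tested on simulated data. Depth is unknown, so no counting intervals were computed.

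Members and lists were chosen with earlier results of these data known. Named were all tested members, up to 4 genes past the threshold per list and contrast, and SLBP, NPAT, H2AZ1, H3-3A, H3-3B, PCNA and CCNE2. The values of 1 other gene that the rule names are not reported here. The marker genes named beside the members, HFE, H2AX, LSM1, LSM4, LSM6, H3P16 and H2BC19P were chosen after their values were seen. Sequences came from GENCODE v29 and RefSeq (GRCh38.p14), matched by gene ID or symbol. Alternatives varied the pseudocount, filter, scaling, weights, replicate block, groups fitted and libraries.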

Additional observations from a re-analysis of the deposited data

How the results depend on the processing

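The 2 members lower after genistein were 1 with a pseudocount of 0.1 (H1-4), with no filter on low values (H1-4), with the replicate block (H1-4), without both DMSO 1 and genistein 2 (H1-4, chosen after seeing the data), and among genes above 0 in all 8 libraries (H2BC21, as H1-4 was then not tested). They were 4 with only the 2 groups compared in the fit and 11 with arrayWeights, and from 1 to 4 when single libraries were left out. The count was 2 with a pseudocount of 5 or a filter on a mean of 5 FPKM, and 3 with either scaling (median-of-ratios or quantile). The members lower after BMP6 ranged from 0 to 5 when single libraries were left out, 5 being without BMP6 2, and were 0 in the other alternatives. In genistein against BMP6, H1-4 made the count of lower members 1 with a pseudocount of 0.1 and with median-of-ratios scaling, and the range was 0 to 1 with single libraries left out. No call changed direction in any alternative run, and the cause of these changes was not tested. Median-of-ratios scaling moved the all-gene median by -0.10 (genistein against DMSO) and -0.15 (against BMP6), while the histone median relative to it went from -1.13 to -1.05 and from -0.14 to -0.17. Calls over all genes ranged from 244 to 5383 around 1527 after genistein, from 4 to 1892 around 106 after BMP6, and from 7 to 540 around 176 between treatments. Fits without 1 library kept the tested genes, and 1 BMP6 library left alone was assumed to vary like the other groups. Same-numbered DMSO and genistein libraries deviated with correlations of -0.146, -0.0652 and -0.00459, so the numbers were not treated as pairs. Same-numbered libraries of genistein and BMP6 had correlations of -0.247 and 0.286, and those of DMSO and BMP6 0.0554 and 0.00142. The strongest correlation was between libraries with different numbers, 0.594 for genistein 3 with BMP6 1. Deviations of the 2 BMP6 libraries mirror each other, so the value of -0.594 with BMP6 2 follows from it. The cause of that correlation was not tested. The lone number of FPKM per gene, without counts, limits what can be said of genes at 0.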

Other observations

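The cluster on chromosome 6 also holds entries outside the histone symbols used here, which were looked at because they share its position. Between its first and last histone gene the files list 51 other entries, 22 of them with a symbol and 25 tested. Those without a symbol may include histone genes under older identifiers, and those with one include the histone pseudogenes H3P16 and H2BC19P. After genistein 1 of these 25 fell and none rose in limma (5.96% and 6.11% of all genes), and the median difference was -0.09. That gene was BTN3A2, a butyrophilin, with 59.6, 94.6 and 77.5 FPKM in DMSO and 29.4, 18.3 and 21.3 after genistein (log2 change -1.71 ± 0.33, limma adjusted p = 0.0177). HFE, the haemochromatosis gene that acts upstream of hepcidin, lies in the same stretch. It had 9.54, 7.67 and 11 FPKM in DMSO, 3.23, 0 and 4.71 after genistein and 9.39 and 10 after BMP6, and its difference after genistein did not pass (-1.83 ± 0.65, adjusted p = 0.107). None of the 25 passed after BMP6, where 1 was higher and 0 lower at an unadjusted p under 0.05 (8.32% and 10.5% of all genes).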
